A study of Mus musculus with 2 samples.

Results

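The genes described are Trp53, which encodes the transcription factor p53, and 9 genes known as its targets: Mdm2, Cdkn1a, Gadd45a, Ccng1, Plk2, Bbc3, Phlda3, Trp53inp1 and Eda2r. They are 10 of the 30222 gene names on an Agilent mouse genome array and were found by the gene name that the array files give each probe. Together they have 14 probes in 23 spots per array. RNA came from the livers of 2 groups of male C57BL/6J mice, a knockout (KO) of Drp1, the GTPase that divides mitochondria and is encoded by Dnm1l, and the wild type (WT). Both groups received a lard-based diet (24% fat, 45% of energy) for 24 weeks from the age of 4 weeks. Each group is 1 array. The labels give neither the number of mice behind it, nor whether they were pooled, nor the deleted part of the gene, nor the allele or driver of the deletion, nor whether the liver was taken fasted or refed. The study's title places the disruption in the liver. No test between the groups was possible, so every difference below compares these 2 arrays and has no replicate check.

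In unstressed cells p53 is kept scarce by Mdm2, a ubiquitin ligase that marks it for degradation and is itself a p53 target. DNA damage and other stresses stabilise the p53 protein, which then binds pairs of a short DNA decamer and switches on genes that halt the cell cycle, repair DNA or start apoptosis. The p53 protein is controlled largely after translation, and several of its targets, among them Cdkn1a and Gadd45a, can also be induced by other factors. The array measures RNA and not p53 protein or its binding.

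Each level is the probe's signal over the 75th percentile of gene signals on its array, and differences are given as log2 values, KO minus WT. Levels of different probes cannot be compared with each other. A probe counted as measured if 50% or more of its usable spots lay well above background, and a gene as higher or lower from 1.5-fold, which is 0.58 on the log2 scale. Spots of the same probe gave a difference between the arrays an SD of 0.14, and the scanner program's own error model gave about 0.20 for a bright probe. Neither covers variation between mice. Both arrays measured 15401 genes, whose median difference was -0.11. The KO array measured 57.1% of all gene probes and the WT array 50.5%. Probes measured on the KO array alone therefore outnumbered those measured on the WT array alone. In counts, 22521 probes were measured on the KO array, 19923 on the WT array and 19470 on both. Dnm1l itself read 1.75 times the 75th percentile in KO liver and 2.03 in WT liver, a difference of -0.21. As the deleted part is not given, its probe does not check the label. All 8 hepatocyte markers, Alb and Ttr among them, were well above background on both arrays.

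Of the 10 genes, 9 were measured on both arrays, and all 9 read higher in KO liver. Most of all measured genes read lower, as their median difference was -0.11. The difference reached 1.5-fold for 6 of them, Cdkn1a, Gadd45a, Phlda3, Trp53inp1, Plk2 and Bbc3, and 0 were at least 1.5-fold lower. Among all measured genes, 8.41% passed 1.5-fold upward and 13.4% downward. The median of the 9 was 1.14. At least 2-fold, 5 of the 9 were higher, against 2.9% of all measured genes. Trp53 and the feedback gene Mdm2 were not among those past 1.5-fold. Eda2r was not well above background on either array.

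**Figure D1:**
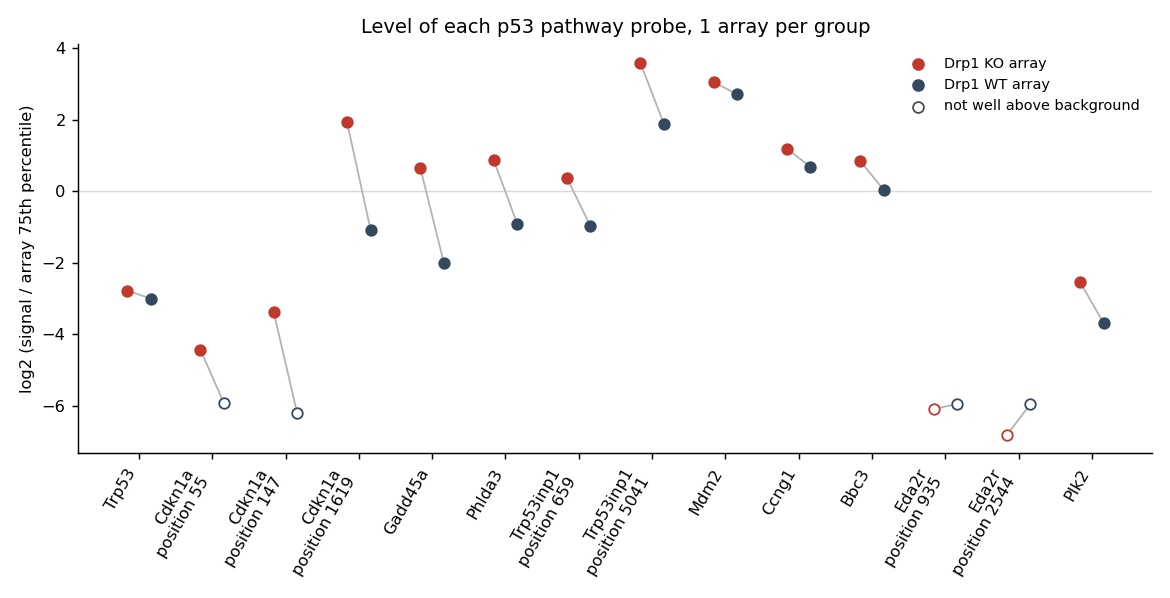
Level of each of the 14 probes on the KO array (red, left of each pair) and on the WT array (dark, right), as log2 of signal over the array's 75th percentile. Open circles were not well above background. Positions are those in the transcript. The KO point lies above the WT point for every probe measured on both arrays, by 3.00 for Cdkn1a at position 1619 and by 0.22 for Trp53.

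Trp53 stood at 0.146 times the 75th percentile in KO liver and 0.125 in WT liver. Its difference of 0.22 was within the 0.27 that the scanner program's error model allows for this dim probe, and it was -0.08 after normexp background correction. The probe covers 69404204 to 69404263 of chromosome 11 in the mm9 build. Mdm2 stood at 8.30 in KO liver and 6.50 in WT liver, a difference of 0.35 or 1.28-fold. That exceeds the error model's 0.20 and falls short of 1.5-fold, and 2441 of the 15401 genes had a greater positive difference. Mdm4, the relative that blocks p53's activation domain, stood at 0.216 and 0.243 in KO and WT liver, a difference of -0.17 that turned positive without the filter on dim probes and under spike-in scaling.

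Cdkn1a, which encodes p21, the inhibitor of cyclin-dependent kinases through which p53 halts the cell cycle, had the greatest difference of the 10. Its main probe, at transcript position 1619, covers 29237377 to 29237436 of chromosome 17 (mm9) and was printed in 10 spots. The KO array's 10 usable spots ran from 3.65 to 3.91 times the 75th percentile with a median of 3.76. The WT array's 9 usable spots ran from 0.434 to 0.577 with a median of 0.466. The lowest KO spot was thus above the highest WT spot, although spots of 1 array repeat the measurement and are no replicates of the mouse. The difference was 3.00, or 7.98-fold, and 13 measured genes had a greater one.

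**Figure D2:**
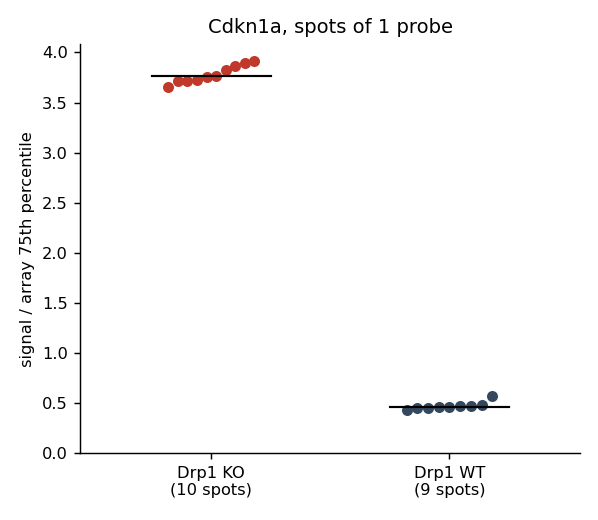
Signal over the array's 75th percentile (linear axis from 0) for each usable spot of the main Cdkn1a probe on the KO array (10 spots) and the WT array (9 spots), with the median as a black line. KO spots lie between 3.65 and 3.91 and WT spots between 0.434 and 0.577.

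A further 2 probes of Cdkn1a lie nearer the start of its transcripts. They are shown with the main probe because they read separate stretches of the gene, each by the first 30 of its 60 bases:
Cdkn1a position 55, transcript variant 2: aatggagacagagaccccagataattaagg
Cdkn1a position 147: tggggtagtttccatagtgacccgggtcct
Cdkn1a position 1619, main probe: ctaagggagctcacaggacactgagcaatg
The probes at positions 55 and 147 were well above background on the KO array, at 0.0463 and 0.0955 times the 75th percentile, and not on the WT array, at 0.0165 and 0.0135. Against the dimmest signal well above background on the WT array, 0.0593, the probe at position 147 (chromosome 17, 29235299 to 29235358, mm9) was at least 1.61-fold higher in KO liver. The probe at position 55 (29227986 to 29228045) was below that limit on both arrays and gives no fold.

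RefSeq lists 2 start sites for Cdkn1a. The 250 bases before the upstream one, chr17:29090729-29090978 on the plus strand of GRCm38.p6, are printed because they hold a pair of p53 decamers. Capitals mark single decamers and the 20-base pair:
Cdkn1a upstream start: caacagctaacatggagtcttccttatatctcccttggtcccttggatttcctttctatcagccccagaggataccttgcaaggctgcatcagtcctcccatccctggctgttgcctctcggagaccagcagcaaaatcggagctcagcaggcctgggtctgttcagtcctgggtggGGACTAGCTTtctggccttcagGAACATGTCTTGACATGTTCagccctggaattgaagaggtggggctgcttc
The pair, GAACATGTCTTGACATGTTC, lies 51 to 32 bases before the start site and departs from the p53 consensus at 1 of 20 bases. Its first decamer, GAACATGTCT, meets the consensus in full, as does GGACTAGCTT at 73 to 64 bases before the start. The 250 bases before the downstream start site hold neither.

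Ccng1, cyclin G1, is a p53 target that recruits a phosphatase to Mdm2. Of the 32851 promoter windows in the RefSeq table, each from 250 bases before to 50 after a start site, 29 (0.0883%) hold such a pair with at most 1 base off and no spacer. The 9 members with a window there include Eda2r but not Trp53inp1, which was not searched. Among their 12 windows, those of Cdkn1a and Ccng1 hold such a pair. The Ccng1 window is shown for comparison with Cdkn1a, at chr11:40755287-40755536 on the minus strand of GRCm38.p6, with its pair in capitals:
Ccng1: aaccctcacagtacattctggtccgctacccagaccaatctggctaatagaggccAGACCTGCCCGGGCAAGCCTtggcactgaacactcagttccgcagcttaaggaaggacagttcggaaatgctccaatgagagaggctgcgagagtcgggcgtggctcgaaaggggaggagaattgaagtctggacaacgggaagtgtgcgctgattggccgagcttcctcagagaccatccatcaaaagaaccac
The pair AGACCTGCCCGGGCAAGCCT lies 195 to 176 bases before the start site. Ccng1 RNA stood at 2.27 times the 75th percentile in KO liver and 1.60 in WT liver, a difference of 0.50 or 1.42-fold (chromosome 11, 40562427 to 40562486, mm9). The 2 genes with a pair in this window thus had differences of 3.00 and 0.50. A single decamer meeting the consensus was in 8.36% of all windows and in those of Trp53, Mdm2, Gadd45a, Cdkn1a and Ccng1. The cyclic AMP element TGACGTCA was in 1.79% of windows and in that of Plk2. The Atf4 element, TTGCATCA on either strand, was in 0.895% and in 0 of the 12. These are matches of letters and not measured binding.

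Gadd45a, which binds Pcna and Cdk1 and acts in growth arrest and DNA repair, stood at 1.56 times the 75th percentile in KO liver and 0.250 in WT liver. The difference of 2.64, or 6.24-fold, was the next after Cdkn1a, and 21 measured genes had a greater one. Its probe lies on chromosome 6 at 66985376 to 66985435 (mm9). Plk2, a polo-like kinase induced by p53 and by growth signals, was dim on both arrays, at 0.171 in KO liver and 0.0778 in WT liver (chromosome 13, 111190915 to 111190974, mm9). Its difference of 1.14, or 2.20-fold, carried an error of 0.36 by the scanner program's model. After normexp background correction, whose offset shrinks the differences of dim probes, it was 0.30 and no longer reached 1.5-fold.

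Bbc3 encodes Puma, a BH3-only protein that frees Bax and Bak to start apoptosis. It stood at 1.79 times the 75th percentile in KO liver and 1.03 in WT liver, a difference of 0.80 or 1.74-fold with an error-model error of 0.20 (chromosome 7, 16903403 to 16903462, mm9). Phlda3, whose pleckstrin homology domain competes with Akt for membrane lipids, stood at 1.83 in KO liver and 0.533 in WT liver. Its difference was 1.78, or 3.42-fold, and 105 measured genes had a greater one (chromosome 1, 137665642 to 137665701, mm9).

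Trp53inp1, a nuclear and autophagosomal protein that promotes p53-dependent arrest and death, was read by 2 probes. At position 659 it stood at 1.29 in KO liver and 0.507 in WT liver, a difference of 1.34. At position 5041 it stood at 12.1 in KO liver and 3.69 in WT liver, a difference of 1.71. Both probes lie on chromosome 4 (11092530 to 11092589 and 11101174 to 11101233, mm9) and do not overlap. They gave the same direction and a mean of 1.53, or 2.88-fold. Eda2r, a TNF receptor family member for ectodysplasin A2, also has 2 probes, at positions 935 and 2544 on chromosome X. They read 0.0147 and 0.00893 in KO liver and 0.0162 and 0.0162 in WT liver, with 0 spots well above background, so no fold is given.

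**Figure D3:**
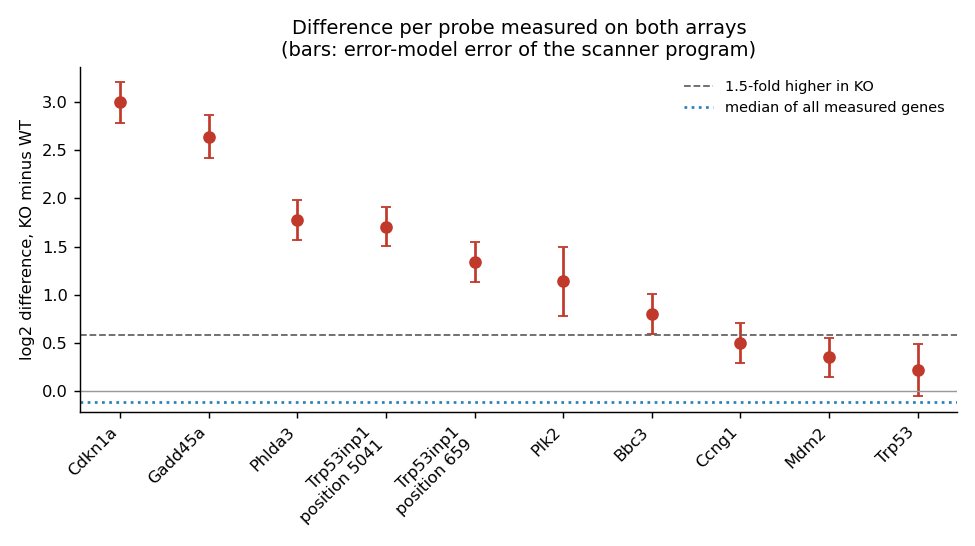
Log2 difference, KO minus WT, of the 10 probes measured on both arrays, in order of size, with bars for the error that the scanner program's error model gives (not variation between mice). The dashed line is 1.5-fold and the dotted line the median of all measured genes, -0.11. The Ccng1, Mdm2 and Trp53 points lie below the dashed line at 0.50, 0.35 and 0.22.

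Under the 9 other ways of processing the arrays, Cdkn1a ran from 2.44 to 3.79, Phlda3 from 1.58 to 2.57, Trp53inp1 from 1.44 to 2.32 and Bbc3 from 0.74 to 1.59. Each stayed at least 1.5-fold higher in all 9. Gadd45a, which the stricter filter on dim probes removes, ran from 2.13 to 3.43 in the other 8 and stayed past 1.5-fold. The upper end is in each case scaling to the E1A spike-in spots, which adds 0.79 to every difference on the array. With that scaling all 9 measured genes were past 1.5-fold, but so were 59.2% of all genes. In the other alternatives Ccng1 reached 1.5-fold only after centring on the median of measured probes, at 0.61, and Mdm2 was at most 0.54.

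**Figure D4:**
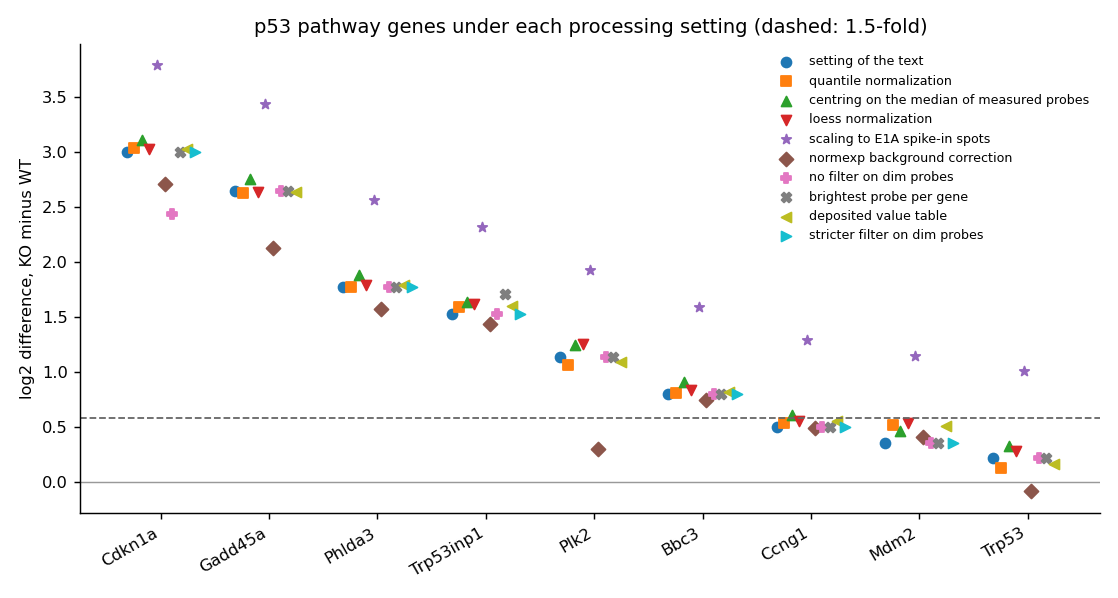
Log2 difference, KO minus WT, of the 9 measured genes under the setting of the text and 9 alternatives, each with its own symbol. The dashed line is 1.5-fold. Cdkn1a, Gadd45a, Phlda3, Trp53inp1 and Bbc3 stay above it throughout, Plk2 falls to 0.30 with normexp, and the stars for spike-in scaling lie 0.79 above the setting of the text.

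The relatives of these genes by sequence or family were set beside them. Of 24 such genes, 17 were measured on both arrays, with 1 at least 1.5-fold higher, 4 lower and a median of -0.22. Among all measured genes 8.41% were higher and 13.4% lower. Next to Cdkn1a, the other Cip/Kip inhibitors Cdkn1b and Cdkn1c differed by 0.32 and 0.27. Next to Gadd45a, Gadd45b differed by 0.34 and Gadd45g by 0.50, and Gadd45g passed 1.5-fold under 6 of the 9 alternatives, spike-in scaling among them. Phlda1 ran the other way from Phlda3, at 19.1 times the 75th percentile in KO liver and 42.3 in WT liver, a difference of -1.15 that kept its sign under all 9 alternatives and was short of 1.5-fold with spike-in scaling alone. Phlda2 was not well above background on either array. The p53 relatives Trp63 and Trp73 differed by -0.60 and -0.51 and Trp53inp2 by -0.58, and all 3 turned positive under spike-in scaling. Trp63, lower by 1.51-fold, was also short of that limit after median, loess or normexp processing and in the deposited value table.

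Among the BH3-only relatives of Bbc3, Pmaip1 (Noxa, also a p53 target) was 1.72-fold higher at 0.78, but at 0.21 after normexp. Bid differed by 0.09 and Bad by -0.39. Bmf was 2.06-fold lower at -1.04 and Bik 1.56-fold lower at -0.64. Under spike-in scaling the signs of Bad and Bik turned and Bmf was short of 1.5-fold at -0.25, and Bik was short of 1.5-fold after median centring too. Bcl2l11 and Hrk were well above background on the KO array alone, at signals too near the WT array's limit to give a fold. Among relatives of Plk2, Plk3 differed by -0.22 and Plk5 by -0.55, both positive under spike-in scaling and Plk3 also with loess. Plk1, the mitotic member, was at least 1.90-fold higher in KO liver by the background limit, and Plk4 was not well above background on either array. Ccng2, the other cyclin G, was at least 1.52-fold higher by the same limit. Bcl2l11, Hrk, Plk1 and Ccng2 were measured on the KO array alone, which measured 57.1% of all gene probes against 50.5% on the WT array. Of the receptors near Eda2r, Tnfrsf19 differed by 0.37 and Edar was below background on both arrays.

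A wider list held 54 further genes known as p53 targets. Of these, 53 were found on the array and 42 were measured on both, with 8 (19.0%) at least 1.5-fold higher and 5 lower. Among all measured genes 8.41% were higher and 13.4% lower. Of the 9 measured genes above, 66.7% were higher, but both sets were chosen with earlier results of these data known. The median of the 42 was -0.07, against -0.11 for all measured genes. Of the 42, 18 had a positive difference, and most of all measured genes had a negative one. Btg2, an antiproliferative immediate early gene, was 3.44-fold higher, at 0.961 in KO liver and 0.279 in WT liver. The death receptor Tnfrsf10b, dim on both arrays, was 2.84-fold higher, at 0.230 and 0.0810 in KO and WT liver. Its difference of 1.51 was 0.61 at its lowest under the alternatives, still past 1.5-fold. Dcxr, a xylulose reductase, was 2.11-fold lower, at 6.97 in KO liver and 14.7 in WT liver. Tap1, the peptide transporter of antigen presentation, was 1.85-fold higher and Aldh4a1, a proline breakdown enzyme, 1.75-fold lower. Aldh4a1 was under 1.5-fold after quantile or loess normalization and with the deposited value table, and under spike-in scaling both it (-0.02) and Dcxr (-0.29) were. A further 5 targets were measured on the KO array alone, 0 on the WT array alone and 6 on neither. The greatest bound among the 5 was at least 1.89-fold higher, for Zfp365. Of all gene probes the KO array measured 57.1% and the WT array 50.5%.

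By role, 2 of 6 measured cell cycle targets were higher and 0 lower, and the median of that group was 0.12. Of 10 cell death targets 2 were higher and 1 lower (median 0.02). The lower one, the death adaptor Pidd1, averaged -0.61 over 2 probes that read -1.04 and -0.17, and it was short of 1.5-fold after median centring, normexp and spike-in scaling, with the stricter filter and by its brightest probe. The effector Bax differed by 0.16, Fas by -0.26 and Perp by -0.12. Of 4 DNA repair targets 2 were higher, Xpc and Polk at 0.80 each, and the median was 0.62. Ddb2, the damage sensor, differed by 0.13. Of 13 targets in metabolism and autophagy 0 were higher and 2 lower (median -0.27), with Sesn1 and Sesn2, which restrain mTORC1, at 0.37 and 0.44. Among the 13, Lpin1 averaged -0.30 over 2 opposed probes that read -1.52 and 0.93. With the stricter filter or by its brightest probe, Lpin1 was past 1.5-fold higher. Polk fell short of 1.5-fold after normexp, and Fas and Perp turned positive under spike-in scaling, Perp also under quantile and loess normalization and in the deposited value table.

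**Figure D5:**
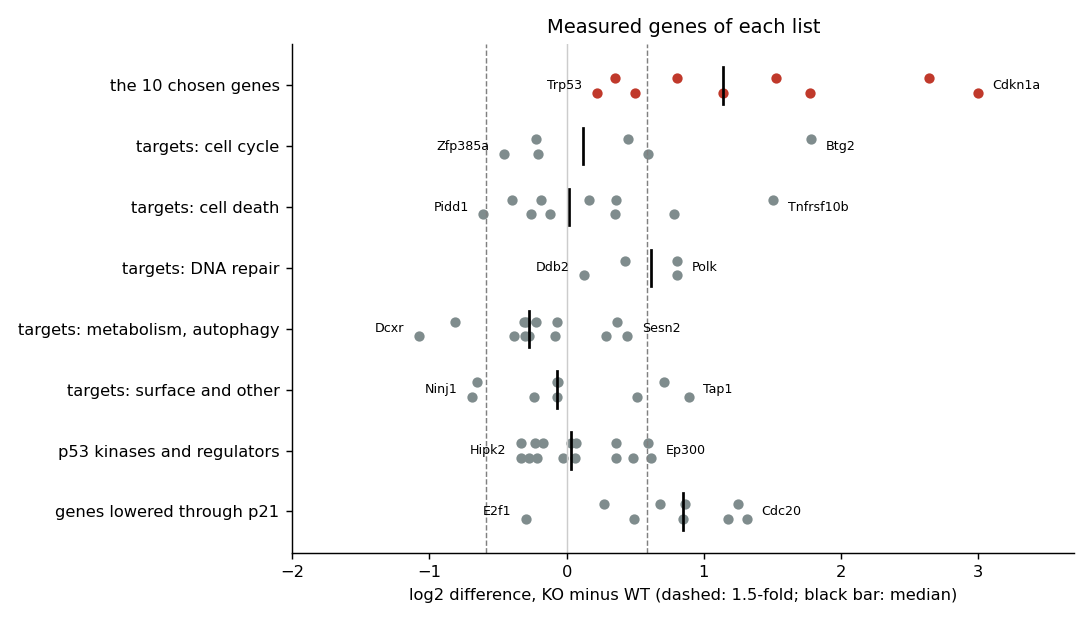
Log2 difference, KO minus WT, of every gene measured on both arrays in the lists shown, 1 point per gene. These are the chosen set, the wider targets by role, the p53 kinases and regulators, and the genes lowered through p21. The lowest and highest are named, the median is a black bar and 1.5-fold is shown as dashed lines. The 9 measured genes of the chosen set (red) run from 0.22 to 3.00, and the 13 targets in metabolism and autophagy from -1.08 to 0.44.

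Upstream of p53, 15 of 18 listed kinases and regulators were measured on both arrays, with 2 (13.3%) at least 1.5-fold higher, 0 lower and a median of 0.03. Among all measured genes 8.41% were higher and 13.4% lower. Of the 15, 8 had a positive difference, while the median of all measured genes was -0.11. The damage kinases Atm and Atr differed by 0.06 and 0.36, Atm with a negative sign after quantile normalization or normexp, and Chek1 and Chek2 were not well above background on either array. Atr's 2 probes read 0.11 and 0.60. The kinases Prkdc and Hipk2 differed by -0.22 and -0.33, both positive under spike-in scaling. The median of the 4 measured kinases was -0.08. The acetyltransferase Ep300 differed by 0.61, Ppm1d, a phosphatase that resets p53 and is its target, by 0.59, Trp53bp1 by 0.48 and the ubiquitin ligase Rchy1 by 0.36. Ep300 and Ppm1d each fell short of 1.5-fold after quantile normalization and normexp and in the deposited value table. Ppm1d is counted in the wider list of targets too. Cdkn2a, which encodes the Mdm2 inhibitor Arf and the kinase inhibitor p16, was well above background on the KO array alone and at least 2.08-fold higher by the background limit. That array measured 57.1% of all gene probes, against 50.5% on the WT array.

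p21 lowers a set of proliferation genes by way of the DREAM repressor complex. In these livers 9 of 20 such genes were measured on both arrays, of which 6 were at least 1.5-fold higher in KO liver and 0 lower, with a median of 0.85. Among all measured genes 8.41% were higher and 13.4% lower. Cdc20, an activator of the anaphase-promoting complex, stood at 0.237 in KO liver and 0.0951 in WT liver, a difference of 1.31. Cdk1 differed by 1.25, the replication licensing factors Mcm2 and Mcm5 by 1.17 and 0.86, and the mitotic cyclin Ccnb2 by 0.85. A further 5 of the 20 were well above background on the KO array alone and 6 on neither. Over all gene probes the KO array also measured more, 57.1% against 50.5% on the WT array. These are totals per array and not shares measured on 1 array alone. Of the 22521 probes measured on the KO array, 19470 were measured on both. After normexp 0 of the 9 reached 1.5-fold. The stricter filter on dim probes removed all 6 that did in the text and kept 3, Birc5, Mcm3 and E2f1, of which 0 reached 1.5-fold.

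A list of 9 genes held cyclins and kinases that p21 binds and Pcna, which it also binds. Of these, 7 were measured on both arrays, with 1 higher, 1 lower and a median of 0.13, the value of Pcna itself. Among all measured genes 8.41% were higher and 13.4% lower. Ccnd1, cyclin D1, stood at 15.5 times the 75th percentile in KO liver and 3.92 in WT liver, a difference of 1.98 or 3.95-fold. Cdk2 stood at 0.0986 in KO liver and 0.193 in WT liver, a difference of -0.97 that was -0.18, short of 1.5-fold, under spike-in scaling. Ccne1 differed by 0.52 (negative without the filter on dim probes), Ccnd2 by 0.19 and Ccnd3 by -0.17 (positive with loess, spike-in scaling and the deposited value table).

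Markers of other cell types also differed between the same arrays. For the counts below, 8.41% of all measured genes were at least 1.5-fold higher and 13.4% lower. All 7 stellate cell and fibroblast markers were well above background on both, and 6 of 7 were at least 1.5-fold higher. Their summed levels, 70.8 in KO liver and 47.6 in WT liver, are mostly the bright probe of Dcn, at 63.0 and 44.6 in KO and WT liver, which was the 1 marker not past 1.5-fold (0.50). A sum follows its brightest probes in the other lists too, so the counts are given beside it. All 7 macrophage markers were measured on both, with sums of 58.2 and 49.6 in KO and WT liver and 4 of 7 at least 1.5-fold higher. Summed hepatocyte markers stood at 2239 in KO liver and 3234 in WT liver, with 3 of 8 at least 1.5-fold lower (Ttr, Serpina1a and Cyp2e1) and 2 higher (Tat at 1.04 and Cps1 at 0.60). Endothelial markers summed to 45.7 in KO liver and 54.5 in WT liver, although 2 of 6 were at least 1.5-fold higher, 0 were lower and the median difference was 0.08. Lymphocyte markers summed to 3.98 in KO liver and 4.99 in WT liver. Of the 5 measured, 2 were at least 1.5-fold higher (Ptprc 2.29-fold and Cd3d 1.98-fold) and 1 was lower (Cd3e at -0.67), with a median of 0.33. Neutrophil markers summed to 2.65 in KO liver and 5.02 in WT liver, with 4 of 5 at least 1.5-fold lower and 0 higher. Of 8 skeletal muscle markers 1 was well above background in KO liver and 7 in WT liver, with sums of 0.276 and 9.89, and Mylpf was below background on both. Of 6 adipocyte markers 2 were well above background on each array, with sums of 2.64 and 6.78 in KO and WT liver, and Adipoq, Lep, Plin1 and Retn were below background on both. The 2 measured were Cfd, 33.6-fold lower at 0.126 in KO liver and 4.23 in WT liver, and Fabp4, which differed by 0.01. Bile duct markers summed to 1.11 in KO liver and 0.575 in WT liver, with 4 of 6 well above background on each and Epcam on neither. Of the 3 measured on both, 2 were at least 1.5-fold higher (Spp1 at 1.40 and Sox9 at 1.24) and 0 lower. Krt7 was well above background on the KO array alone and Cftr on the WT array alone. The part of these cells in the p53 pathway values was not tested, and in a bulk sample fewer cells of a type cannot be told apart from less RNA per cell.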

How the data were processed

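Total liver RNA was labelled with Cy3 and hybridised to 1-colour Agilent arrays, 1 per group, both on 1 slide, per the labels' protocols and the file headers. The deposited scanner files hold spot intensities from Agilent Feature Extraction (10.7.1.1 per the file headers, 9.5.1.1 per the submitters' processing notes), background-subtracted and spatially detrended. The processed intensity was divided by the array's 75th percentile over gene spots (722 for KO and 461 for WT) and log2-transformed. Outlier spots were left out (190 on the KO and 183 on the WT array, 1 of them of Cdkn1a), 0 gene spots were saturated, and spots of a probe and then measured probes of a gene were averaged. Of 39429 gene probes, 57.1% were measured on the KO and 50.5% on the WT array. A bound sets the bright array against the dimmest measured probe of the other.

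Genes were named by the files' gene names, and 5 list genes through RefSeq synonyms. Probe coordinates are mm9 and promoters GRCm38.p6, from RefSeq, and none were converted. The named genes are all 10 members, their measured relatives, up to 5 genes with the greatest difference in each other list and further list genes named after their values were seen. The members and lists were chosen with earlier results of these data known. Alternatives were quantile, median, loess (span 0.3) and E1A spike-in scaling, normexp (offset 50, limma 3.58.1), no filter or a stricter one (above the 25th percentile) on dim probes, each gene's brightest probe, and the authors' value table, which holds linear intensities with nearly the same sorted values and a median of 45.9 in both columns and was matched by probe. The number of arrays limits the precision, and no p-value is given. The gene table was tested on simulated data.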

Additional observations from a re-analysis of the deposited data

How the results depend on the processing

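The count of members at least 1.5-fold higher was 6 in the text and between 4 (of 6 left by the stricter filter) and 9 under the alternatives, and 0 members were at least 1.5-fold lower under each of them. The members' median of 1.14 was 1.93 with spike-in scaling, 0.74 with normexp and 0.97 without the filter. Of all genes, 8.41% were higher in the text, 59.2% with spike-in scaling, 4.27% with normexp and 5.69% with the stricter filter. Counted from 2-fold, 2.9% were. With the stricter filter, 5 of the 35 further targets it kept were higher. Of the 42 further targets measured in the text, 8 were higher there, 25 with spike-in scaling, 5 with normexp and 2 from 2-fold. The 5 lower became 2 with quantile, median or loess scaling and in the deposited value table, 0 with spike-in scaling, 3 with normexp, 8 without the filter, where 53 targets are counted and 37.5% of all genes are lower, and 1 from 2-fold. Their median of -0.07 was 0.074 with loess and 0.72 with spike-in scaling. With spike-in scaling the medians were 0.82 for regulators, 0.57 for relatives, 1.64 for genes lowered through p21 and 0.92 for cyclins, kinases and Pcna. For these 4 lists the alternatives were chosen after seeing the data. The relatives' median of -0.22 was -0.063 without the filter. That of genes lowered through p21 was 0.38 with normexp, 0.49 without the filter and 0.27 with the stricter one. Spike-in scaling moved the median of all genes by 0.79, the missing filter by -0.20, and median and loess scaling by 0.11 each; that split of all genes was 59.2% higher and 1.34% lower with spike-in scaling. The causes were not tested. No member past 1.5-fold changed sign. The stricter filter removes the probes of Trp53, Gadd45a and Plk2. Those of Trp53 and Plk2, dim on both arrays, are limited by signal over background, with error-model errors of 0.27 and 0.36. The error for Gadd45a was 0.22, and its probe stood at 1.56 in KO liver and 0.250 in WT liver. No paired analysis was possible because each group has 1 array.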
